A study of Mus musculus with 22 samples.

Results

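Histone H3 monomethylated at lysine 4 (H3K4me1) was compared between livers of mice on a high-fat diet and on chow, over all 16834 regions in the deposited table of H3K4me1 union peaks. No region was left out, and these are 16834 of the 28069 union peaks of the series, the other 11235 being peaks of H3 acetylated at lysine 27 (H3K27ac). The 6 H3K4me1 libraries are 6 of 22 libraries in a study of how a fatty diet makes the liver resistant to insulin. Both diets used wild-type C57BL/6J mice that were 24 weeks old and had fasted overnight. The chow group stayed on chow, and the other group was moved to the high-fat diet when 8 weeks old and kept on it for 16 weeks. Each diet has 3 numbered H3K4me1 libraries, made by chromatin immunoprecipitation from frozen, pulverized liver, and 1 control library from nonspecific IgG. Sex is not given. The labels do not state which animal each library came from, so p-values measure the spread between these libraries. In the list headers, chow and high-fat-diet files sit under differently coded directories, so any batch tied to a diet and the diet itself cannot be told apart.

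H3K4me1 is laid down at enhancers, the distal switches of gene expression, and on the flanks of active promoters. An enhancer that carries H3K4me1 alone is often primed or weakly active, and the addition of H3K27ac marks it as active. H3 trimethylated at lysine 4 (H3K4me3) marks the start sites of genes, where H3K4me1 is usually low at the centre and higher on both sides. In liver, H3K4me1 domains surround the binding sites of hepatocyte factors and of nuclear receptors that respond to lipids, bile acids and hormones. Liver pieces hold several cell types, and fewer cells of a type cannot be told apart from less mark per cell. The peaks carry no gene names, so the tissue was checked in the mRNA libraries of the series. There the 6 hepatocyte markers summed to 80600 to 87900 counts per 1e+06 counts (CPM) on chow and 83200 to 93900 on the high-fat diet. Over both diets, 4 markers each summed to 115 to 247 CPM for stellate, 107 to 216 for endothelial, 75.1 to 202 for macrophage, 6.35 to 10.8 for biliary and 0.993 to 2.1 for lymphoid cells. The 4 markers of pancreatic acinar cells, a tissue next to the liver, summed to 103 to 599 CPM on chow and 9.01 to 72.2 on the high-fat diet, and none was at 0 in all libraries. The part of acinar cells in the H3K4me1 results was not tested. Promoter H3K27ac was a second check of the tissue. It had a median of 30.4 CPM (9.74 to 128) at the 6 hepatocyte markers, below the median of 34 for all promoters. For the other marker lists the medians ran from 12 (acinar) to 24.9 (endothelial) CPM. Promoter H3K27ac at these markers thus did not stand above that of promoters in general.

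The union peaks covered 66.1 Mb of the mouse genome (build mm9) and were 445 to 46890 bases wide, with a median of 3052 and quartiles of 2049 and 4749. Counts in peaks ran from 5487592 to 7380206 per library. The mean level of a peak lay between 8.09 and 1030 CPM, with a median of 41.9. Per length, which allows peaks to be compared with each other, the median was 14.1 CPM per kb and the range 6.24 to 34.5. Wide peaks held more counts but were not denser: across the 16834 peaks, Spearman's rho of width was 0.92 with CPM and 0.07 with CPM per kb. Many peaks were close neighbours, since the median gap to the nearest other peak was 7588 bases and 3367 peaks lay within 670 bases of one.

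Chow libraries resembled each other more closely than high-fat-diet libraries did. Pearson's r of log2 CPM across peaks was 0.985 to 0.989 within chow and 0.963 to 0.98 within the high-fat diet. Between the diets r was 0.959 to 0.98, a range that takes in the one within the high-fat diet. High-fat-diet replicate 1 had an r of 0.968 to 0.97 with the chow libraries and of 0.963 and 0.969 with high-fat-diet replicates 2 and 3. In a principal component analysis the first component held 40.4% of the variance. Its scores were -13.96, -13.34 and -5.03 in chow replicates 1 to 3 and 3.48, 21.85 and 7 in high-fat-diet replicates 1 to 3, so the diets did not overlap on it. On the second component, with 29% of the variance, high-fat-diet replicate 1 lay at -23.45 and the other 5 libraries between 2.6 and 6.87. High-fat-diet replicate 1 therefore stood apart from all other libraries, and the main counts of changed peaks are given with and without it.

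H3K4me1 changed at 263 of 16834 peaks (1.56% of those tested), where 115 were higher (0.683%) and 148 lower (0.879%) in high-fat-diet livers, by edgeR's quasi-likelihood test with a Benjamini-Hochberg adjusted p under 0.05. The changes were small. The absolute log2 fold change was 0.31 to 1.13 (median 0.52) at the higher peaks and 0.23 to 1.21 (median 0.46) at the lower peaks. Over all peaks the median log2 fold change was 0.0074 with quartiles of -0.11 and 0.13, and 99% of peaks lay within 0.5 of 0. At all 115 higher peaks and at 147 of the 148 lower peaks all libraries of one diet lay above all of the other, as they did at 22.0% of all peaks (1845 higher and 1855 lower). An unadjusted p under 0.05 was reached by 3014 peaks (17.9%). Just inside the threshold, chr2:155890461-155894424 had an adjusted p of 0.0496 (log2 fold change -0.39). Just outside it, chr11:53291363-53294171, chr19:8994147-8997497 and chr12:100452277-100456283 each had 0.0504 (log2 fold changes of -0.41, 0.45 and -0.40).

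These levels are relative to the counts in peaks of each library. The headers of the peak lists give 93501047 H3K4me1 tags for the pooled chow libraries and 96367524 for the high-fat diet, and 21.5% and 19.6% of these lay in union peaks. On the scale of all tags, the log2 fold change of each peak would shift by -0.13 from the value printed here.

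The number of changed peaks depended on single libraries. Without high-fat-diet replicate 1 it was 2036 (12.1% of peaks), with 913 higher (5.42%) and 1123 lower (6.67%), and all 263 peaks were among them. It was 79 without high-fat-diet replicate 2 and 268 without replicate 3. Leaving out a chow library gave 47, 34 and 65 peaks, for chow replicates 1, 2 and 3. At the 913 peaks that were higher without high-fat-diet replicate 1, that library had a median log2 ratio of 0.17 to the chow mean and the other two had 0.39. At the 1123 lower peaks the values were -0.15 and -0.34. The other two libraries and the chow mean chose these peaks, so these values are a description and no measure of how far replicate 1 differs.

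**Figure D1:**
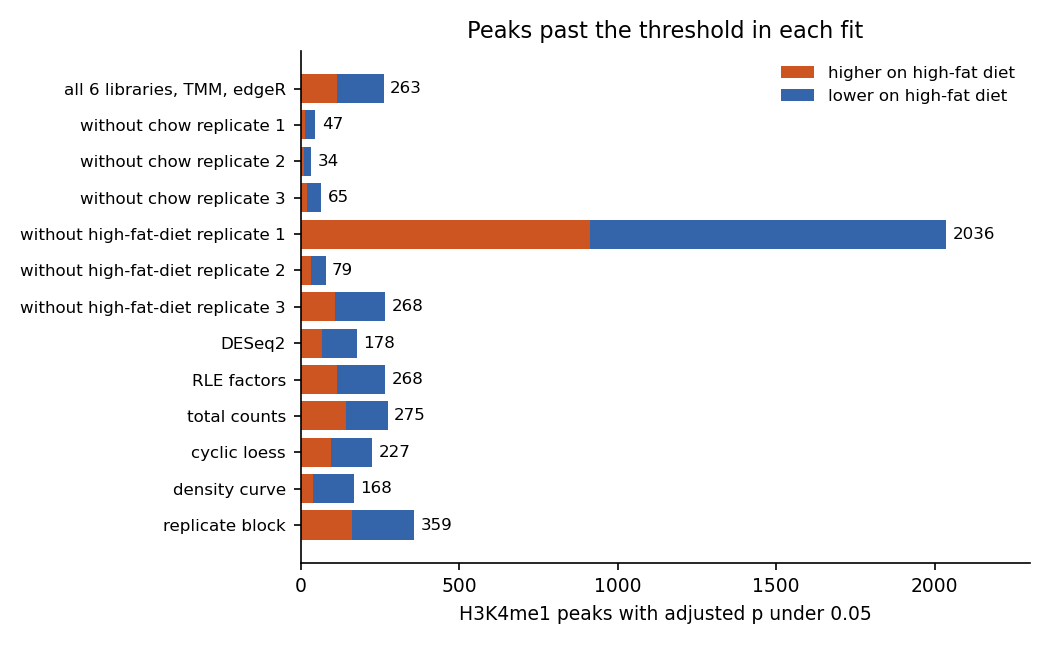
Number of H3K4me1 peaks with an adjusted p under 0.05 (x axis) in each fit (y axis), with peaks higher on the high-fat diet in orange and lower peaks in blue. The fit without high-fat-diet replicate 1 gives 2036 peaks, the fit on all 6 libraries 263, and the fit without chow replicate 2 gives 34.

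The peak that fell most among those with above-median signal was chr5:121144084-121151999, 7916 bases wide. Its H3K4me1 level was 125, 114 and 124 CPM in the chow libraries and 75.7, 70.7 and 64.5 CPM on the high-fat diet. Every chow library lay well above every high-fat-diet library, and the fall was 1.72-fold (log2 fold change -0.78, SE 0.0921, edgeR adjusted p = 2.87e-05). The next, chr17:14308564-14313992, had 78.4, 80.4 and 70.5 CPM on chow and 49.9, 41.3 and 43.3 CPM on the high-fat diet. It fell 1.71-fold (log2 fold change -0.77, SE 0.104, edgeR adjusted p = 0.000214), again with no overlap. The third, chr17:29345448-29349683, went from 68.7, 65.2 and 64.6 CPM to 34.6, 39.5 and 44.1 CPM, a log2 fold change of -0.74 (edgeR adjusted p = 0.000464). All 3 were in the chow peak list and not in the high-fat-diet list, and none overlapped an H3K4me3 peak.

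Among peaks with above-median signal, the one that rose most was chr4:138432363-138440458, 8096 bases wide and without an H3K4me3 or H3K27ac peak. Its level was 62.4, 59.6 and 66.6 CPM on chow and 95.9, 92.1 and 109 CPM on the high-fat diet, a 1.58-fold rise (log2 fold change 0.66, SE 0.0969, edgeR adjusted p = 0.000464). The diets were far apart relative to the spread within either. At chr1:74157055-74160492, the second largest rise, levels were 53.4, 50 and 42.8 CPM on chow and 54.2, 83.4 and 83.6 CPM on the high-fat diet. Here high-fat-diet replicate 1 lay only just above the highest chow library, and the log2 fold change was 0.60 with all libraries (edgeR adjusted p = 0.0127) and 0.77 without that replicate. The opposite held at chr17:84480682-84486457, with 65.8, 71.3 and 64.3 CPM on chow and 123, 80.7 and 83.7 CPM on the high-fat diet. There high-fat-diet replicate 1 was the highest library, and its omission lowered the log2 fold change from 0.50 to 0.29.

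**Figure D2:**
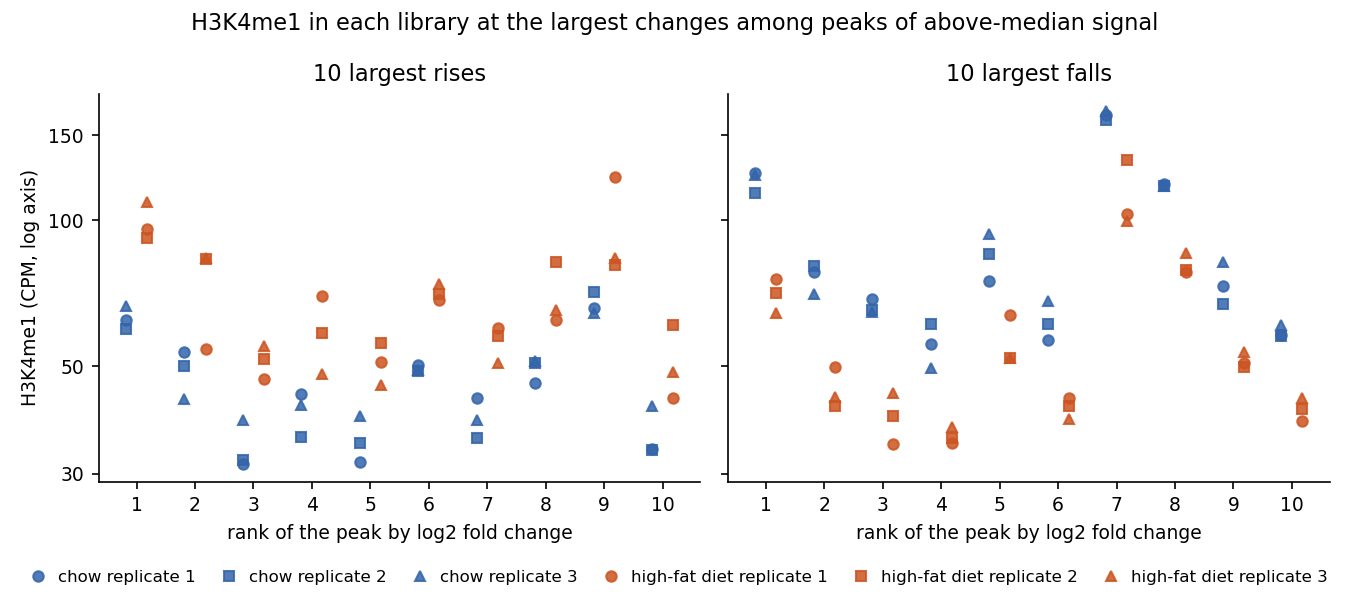
H3K4me1 level in CPM (y axis, log scale) in each of the 6 libraries at the 10 largest rises (left) and the 10 largest falls (right) among changed peaks with a mean log2 CPM over 5.4, the median of all peaks, ranked by log2 fold change (x axis). Blue symbols are chow and orange symbols high-fat-diet libraries; the diets do not overlap at any of these peaks, which is part of how they were chosen, and the first fall runs from 125, 114 and 124 CPM to 75.7, 70.7 and 64.5 CPM.

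The 10 largest falls and the 10 largest rises with above-median signal differed in how well they held. The falls were drawn from 87 eligible peaks and the rises from 35, so the falls are the stricter cut. The highest edgeR adjusted p with all libraries was 0.007 among the falls and 0.0336 among the rises. Of the 10 falls, 6 kept an adjusted p under 0.05 in every alternative fit in which they were tested, and so did 1 of the 10 rises, chr4:138432363-138440458. All 10 falls were in the chow peak list and 0 in the high-fat-diet list, while 8 of the 10 rises were in the high-fat-diet list and 5 in the chow list. List membership comes from the same reads and does not support the direction. Of the falls, 7 had neither an H3K4me3 nor an H3K27ac peak, as had 5 of the rises and 38.2% of all peaks. The largest adjusted p among the falls when any 1 library was left out was 0.072, at chr12:100504560-100509655, and among the rises 0.224, at chr8:25540622-25544301.

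Over all 263 changed peaks, 17 passed the threshold in each of the 6 fits that left out 1 library, and 14 of these were lower. These 17 include 10 peaks outside the ranking above, most of them with a low level. Not all of the 10 are named here, and those that are were chosen after their values were seen. The largest log2 fold changes of the whole table belong to this group. At chr3:94486029-94487836 the level was 17.7, 24.7 and 22.6 CPM on chow and 9.1, 11.7 and 7.07 CPM on the high-fat diet, a log2 fold change of -1.21 (SE 0.178, edgeR adjusted p = 0.000464). At chr19:12534644-12538610 it was 13, 17.9 and 16.7 CPM on chow and 31.8, 46.8 and 25 CPM on the high-fat diet, a log2 fold change of 1.13 (SE 0.172, edgeR adjusted p = 0.000726). In neither did the diets overlap, and they were the only 2 peaks that passed the threshold with an absolute log2 fold change over 1. The third rise in the group, chr7:52907915-52910680, went from 24.4, 27.6 and 20.8 CPM to 38.6, 45.2 and 47.6 CPM. All 14 falls were in the chow list, 1 was also in the high-fat-diet list, and 10 had neither an H3K4me3 nor an H3K27ac peak. Of all peaks, 38.2% had neither.

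The widest and the densest peaks did not pass the threshold. At the widest, chr18:60867016-60913905 with 46890 bases, the log2 fold change was 0.02 (SE 0.0504, edgeR adjusted p = 0.842). For the next in width, chr11:97658600-97690227 and chr2:167130018-167159371, it was -0.06 (SE 0.0522) and 0.04 (SE 0.0593). All 3 overlapped H3K27ac peaks. The densest peak, chr4:154586569-154596937 with 34.5 CPM per kb, had 370, 365 and 364 CPM on chow and 360, 331 and 356 CPM on the high-fat diet, so that every high-fat-diet library lay below every chow library by a small amount (log2 fold change -0.07, SE 0.0623). At chr1:90167707-90175559, with 34.4 CPM per kb, the diets overlapped and the log2 fold change was 0.10 (SE 0.0719). The third in density, chr14:70080932-70083620, was at 93.8, 89.9 and 86.7 CPM and at 83.3, 92 and 95.6 CPM, with a log2 fold change of 0.00 (SE 0.0914).

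Width had little bearing on the median change. Among the widest peaks the lower ones outnumbered the higher ones, by a margin that depended on the scaling. Across the 16834 peaks Spearman's rho between width and log2 fold change was 0.00, and between width and its absolute value -0.15. These points share the 6 libraries and their depth. In 5 equal bins of width, each of 3366 or 3367 peaks, median log2 fold changes lay between -0.01 and 0.02. The narrowest bin, under 1858 bases, had the smallest share of changed peaks, 0.832%, with 10 higher and 18 lower, and the other bins had 1.63% to 1.90%. The median SE of the log2 fold change declined from 0.15 in the narrowest bin to 0.09 in the widest, whose counts are higher. In the widest bin, from 5367 bases up, 14 peaks were higher and 41 lower. Without high-fat-diet replicate 1 the share of changed peaks was 6.42% in the narrowest and 15.6% in the widest bin. The widest bin then had 167 higher and 358 lower peaks. With all libraries and cyclic loess scaling it had 19 higher and 24 lower peaks. With the correction for density described below it had 7 and 31. Of peak counts, that bin held 47.3%, 47.5% and 47.3% on chow and 47.1%, 46.8% and 47% on the high-fat diet. The diets did not overlap there (exact permutation p = 0.1, the lowest possible).

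Direction went with signal density. Spearman's rho across peaks between log2 fold change and mean CPM per kb was -0.38, and -0.34 without high-fat-diet replicate 1, against -0.15 for mean CPM. In 5 equal bins of CPM per kb the median log2 fold change declined in order, at 0.11, 0.06, 0.02, -0.03 and -0.09 from the least dense to the densest. Of the 115 higher peaks, 70 were in the least dense bin (under 11.4 CPM per kb) and 1 in the densest (over 17.6). The 148 lower peaks numbered 26, 21, 25, 29 and 47 per bin. Changed peaks made up 2.85% of the least dense bin and 1.16% to 1.43% of the others. Without high-fat-diet replicate 1 the least dense bin did not stand out by its share, at 14.6% against 14.8% in the densest bin. In that fit higher peaks numbered 403, 218, 168, 95 and 29 from the least dense to the densest bin, and lower peaks 88, 123, 170, 272 and 470. The order held at every width: in narrow, middle and wide peaks, 3 classes of equal size, the median was 0.07, 0.10 and 0.08 at low density and -0.08, -0.09 and -0.05 at high density.

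**Figure D3:**
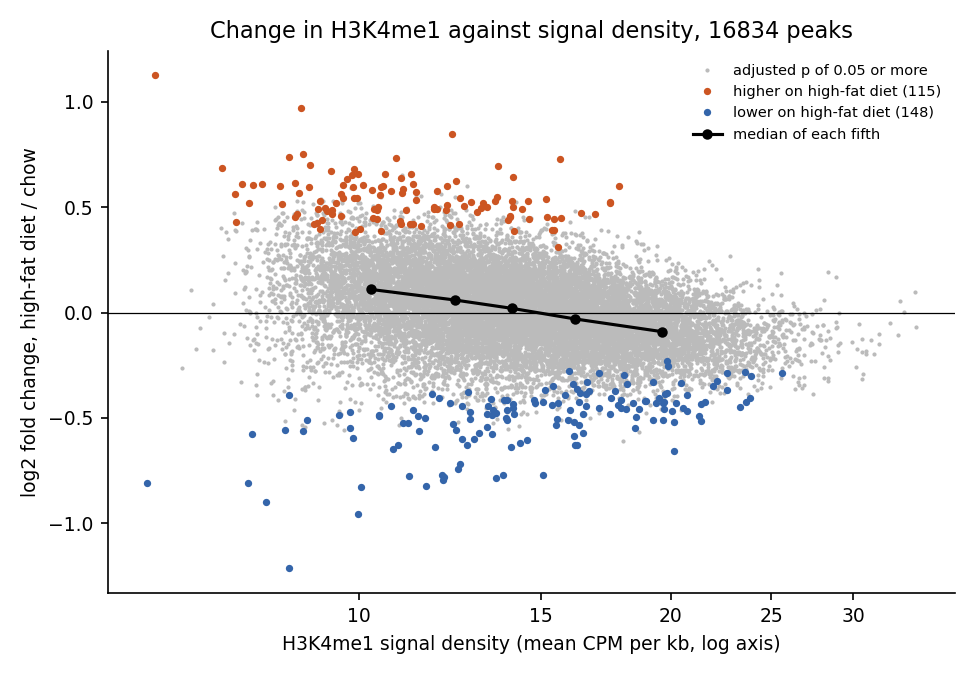
Log2 fold change of H3K4me1, high-fat diet over chow (y axis), against mean CPM per kb (x axis, log scale) for all 16834 peaks. Orange and blue points are the 115 higher and 148 lower peaks; the black line joins the medians of 5 equal bins of density, which run from 0.11 to -0.09.

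Library by library, the relation with density did not separate the diets. In the least dense bin the median log2 ratio to the chow mean was -0.019, -0.037 and 0.059 in chow replicates 1 to 3 and 0.086, 0.156 and 0.051 in high-fat-diet replicates 1 to 3. Chow replicate 3 thus lay above high-fat-diet replicate 3, and the diets overlapped. In the densest bin the values were 0.016, 0.032 and -0.045 on chow and -0.082, -0.136 and -0.041 on the high-fat diet, with the same overlap. The slope of each library's log2 CPM on log2 CPM per kb, relative to the mean of all libraries, was 0.127, 0.158 and -0.0152 on chow and -0.0761, -0.194 and 0.000191 on the high-fat diet. The difference of -0.18 had a two-sided exact permutation p of 0.2, where 3 against 3 libraries can reach 0.1 at the lowest. The share of peak counts in the densest bin was 34%, 34.4% and 33% on chow and 32.2%, 31.8% and 33.2% on the high-fat diet (exact permutation p = 0.2).

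**Figure D4:**
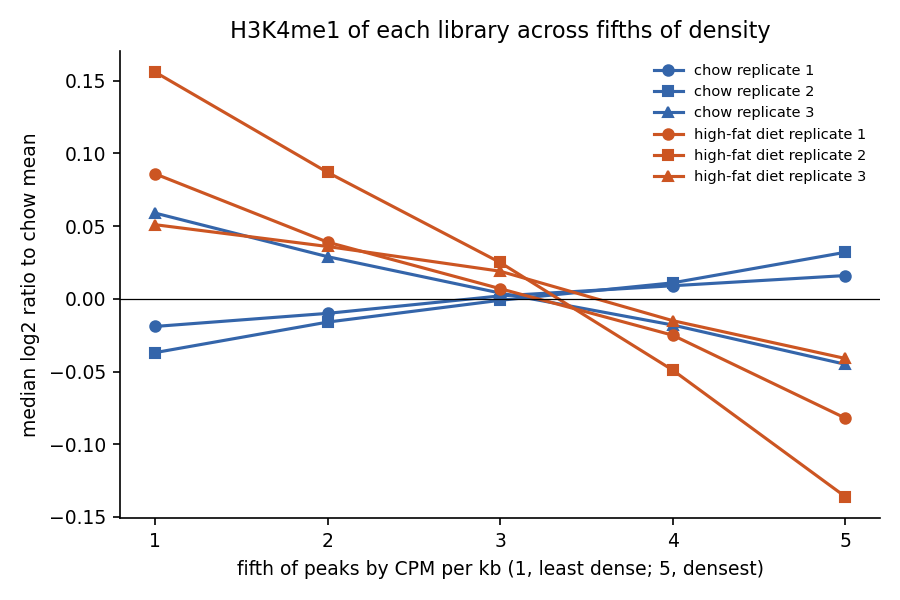
Median log2 ratio of H3K4me1 to the mean of the chow libraries (y axis) in 5 equal bins of peaks by CPM per kb (x axis, least dense at the left) for each of the 6 libraries. Chow replicate 3 (blue triangles), at 0.059 in the least dense and -0.045 in the densest bin, runs beside high-fat-diet replicate 3 (orange triangles), at 0.051 and -0.041.

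When the relation with density was removed from each library with a smooth curve, an alternative chosen after the data were seen, 168 peaks passed, 39 higher and 129 lower, and 126 of these were among the 263. The balance of higher to lower peaks therefore depends on this correction, since 115 to 148 became 39 to 129. In the least dense bin the corrected counts were 12 higher and 54 lower, and in the densest bin 2 and 4. The 10 largest falls all kept an adjusted p under 0.05 after this correction, as did 6 of the 10 largest rises. The cause of the relation with density was not tested.

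Peaks were then divided by the other marks they overlapped by at least 1 base. H3K4me3 peaks were called from 2 chow libraries, and the mark on the high-fat diet was not analysed here. Both marks were present at 3614 H3K4me1 peaks, H3K4me3 alone at 2590, H3K27ac alone at 4197 and neither at 6433. Where H3K4me3 lay without H3K27ac, 0 peaks were higher and 37 lower (1.43% changed), and the median log2 fold change was -0.11. Where H3K27ac lay without H3K4me3, the pattern of active distal enhancers, 46 were higher and 15 lower (1.45% changed), with a median of 0.08. At peaks with neither mark, which is the pattern of primed enhancers, 55 were higher and 71 lower (1.96%, median 0.03), and at peaks with both marks 14 were higher and 25 lower (1.08%, median -0.02). The order of these shares rested on high-fat-diet replicate 1. Without it, H3K4me3 alone had the highest share (18.8%, 22 higher and 464 lower) and neither mark the lowest (10.1%, 332 higher and 318 lower). H3K27ac alone then had 466 higher and 55 lower peaks (12.4%), and both marks 93 and 286 (10.5%). The medians were -0.16 for H3K4me3 alone and 0.11 for H3K27ac alone, of the same sign as with all libraries.

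The contrast between these classes was uneven across libraries. In peaks with H3K4me3 alone the median log2 ratio to the chow mean was 0.026, 0.026 and -0.052 on chow and -0.017, -0.21 and -0.1 on the high-fat diet. High-fat-diet replicate 1 lay inside the chow range, and the exact permutation p was 0.2. In peaks with H3K27ac alone the ratios were -0.016, -0.0083 and 0.025 on chow and -0.02, 0.15 and 0.073 on the high-fat diet, where replicate 1 lay below all chow libraries (exact permutation p = 0.4). Density moved with the classes, at a median of 16.4 CPM per kb for H3K4me3 alone and 13.6 for H3K27ac alone. In the densest of 3 equal classes of peaks the median log2 fold change was -0.15 for H3K4me3 alone and 0.00 for H3K27ac alone, and in the least dense class it was -0.02 and 0.14. After the density correction H3K4me3 alone had 0 higher and 12 lower peaks with a median of -0.07. H3K27ac alone then had 15 of the 39 higher and 22 of the 129 lower peaks, and its median was 0.07, against 0.08 before.

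H3K27ac, measured in other libraries of the same diets, changed at 215 of 11235 peaks (1.91%), 135 higher (1.20%) and 80 lower (0.712%) by the same test. Of all 16834 H3K4me1 peaks, 7811 overlapped an H3K27ac peak. Of the 115 peaks with higher H3K4me1, 60 overlapped one. The median H3K27ac log2 fold change there was 0.15, 41 of 60 had the same sign, 11 passed in the same direction and 1 in the opposite. Of the 148 peaks with lower H3K4me1, 40 overlapped an H3K27ac peak, with a median H3K27ac log2 fold change of 0.02. Among these 19 had the same sign, 6 passed in the same direction and 1 in the opposite. As the background, 53.1% of all 7811 H3K4me1 peaks with an H3K27ac peak had the same sign in both marks, and Spearman's rho between the marks' log2 fold changes was 0.08 across them. Most changes in either mark thus had no called partner in the other, and whether the marks differ in their change was not tested.

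At the fall of chr17:14308564-14313992, where H3K4me1 dropped 1.71-fold, the overlapping H3K27ac peak was at 92.6, 107 and 115 CPM on chow and 75.3, 51.6 and 60.9 CPM on the high-fat diet. H3K27ac also fell there (log2 fold change -0.78, SE 0.113, edgeR adjusted p = 0.000654). At chr14:66284885-66296029 the marks parted. H3K4me1 went from 165, 161 and 168 CPM to 103, 133 and 99.6 CPM (log2 fold change -0.56, edgeR adjusted p = 0.00174), while H3K27ac was at 91.8, 99 and 84.8 CPM and at 73.8, 103 and 94.2 CPM, with overlapping diets (log2 fold change 0.01, SE 0.102). The fall at chr9:48638357-48643749, from 119, 118 and 118 CPM to 78.2, 79 and 85.7 CPM, likewise had an H3K27ac log2 fold change of -0.06 (SE 0.0899). Both of these falls overlapped H3K4me3 peaks.

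Changed peaks formed 3 clusters, defined as at least 3 changed peaks of the same direction with gaps of at most 50 kb. On chr1:74127221-74160492 all 3 peaks in a span of 33.3 kb rose, with log2 fold changes of 0.39, 0.45 and 0.60. Their summed level was 204, 195 and 190 CPM on chow and 229, 284 and 299 CPM on the high-fat diet. High-fat-diet replicate 1 was closest to chow, without overlap. The peaks with values of 0.45 and 0.60 have a gap of 268 bases between them. They share 1 H3K27ac peak, which rose with a log2 fold change of 0.68 (edgeR adjusted p = 0.000534). The first, chr1:74127221-74133400, had an H3K27ac value of 0.26 that did not pass (edgeR adjusted p = 0.127).

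On chr17:14299554-14313992 all 3 peaks within 14.4 kb fell, with log2 fold changes of -0.65, -0.42 and -0.77. The summed level was 186, 185 and 183 CPM on chow and 118, 130 and 122 CPM on the high-fat diet, a gap many times the spread within either diet. All 3 had H3K27ac peaks, with H3K27ac log2 fold changes of -0.58, -0.67 and -0.78. The first of these did not pass the threshold (edgeR adjusted p = 0.0618) and the others did.

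The longest cluster, chr5:114998090-115050117, held 6 peaks in 52 kb, all with negative log2 fold changes, and 4 passed. Some members nearly abut, as where 1 ends at 115030588 and the next starts at 115030620. Whether close members of a cluster are separate regions or parts of 1 domain was not tested. The summed level of the cluster was 979, 1000 and 936 CPM on chow and 750, 793 and 804 CPM on the high-fat diet. Again every high-fat-diet library lay below every chow library. The widest member, chr5:115017075-115030588, overlapped an H3K4me3 peak and went from 357, 369 and 344 CPM to 259, 293 and 317 CPM (log2 fold change -0.30, SE 0.07, edgeR adjusted p = 0.024). The largest fall was at chr5:115030620-115036397, with a log2 fold change of -0.49. H3K27ac fell at the first 2 members, by 0.38 and 0.54 on the log2 scale, including chr5:115005297-115011668, where H3K4me1 itself did not pass (log2 fold change -0.15, edgeR adjusted p = 0.398).

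**Figure D5:**
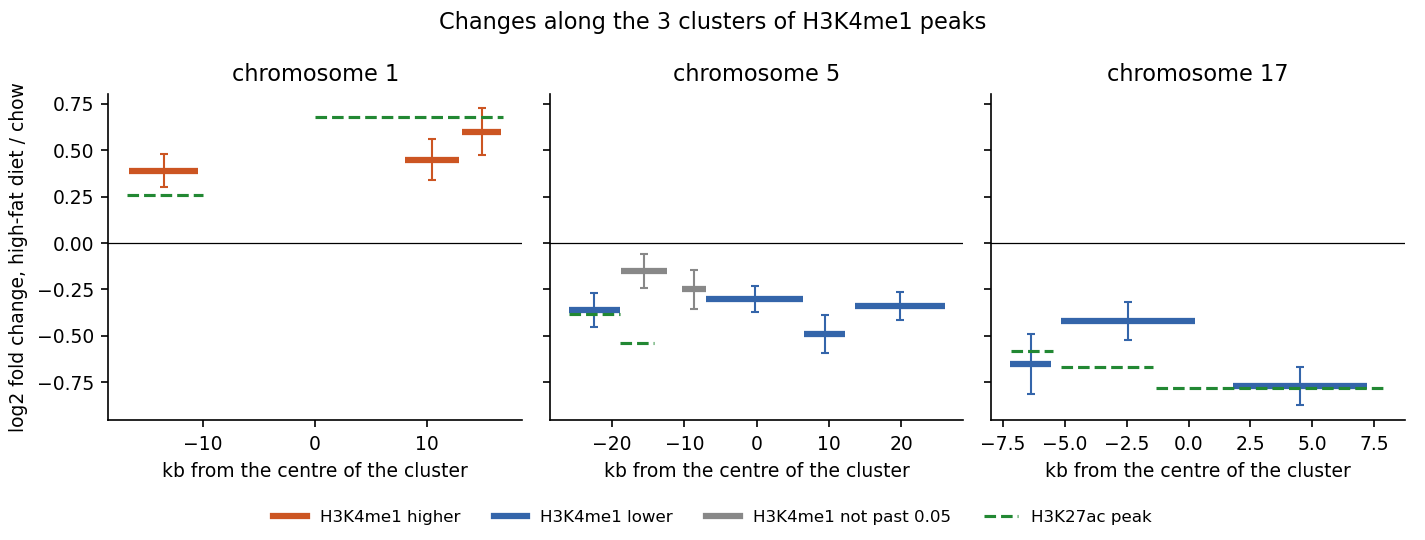
Log2 fold change, high-fat diet over chow (y axis), along the clusters on chromosomes 1, 5 and 17, in kb from the centre of each (x axis). Thick bars are H3K4me1 peaks drawn at their width with the SE of the fold change (orange higher, blue lower, grey not past the threshold) and dashed green bars are H3K27ac peaks; in the cluster on chromosome 17 the H3K4me1 values are -0.65, -0.42 and -0.77.

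With all 6 libraries, the same 3 clusters were counted with gaps of up to 25 or 100 kb. Leaving out high-fat-diet replicate 1, where 12.1% of all peaks changed, gave 51 clusters, 25 higher and 26 lower. In that fit gaps of up to 25 and 100 kb gave 27 and 82 clusters. At 50 kb, leaving out high-fat-diet replicate 2 or 3 gave 1, and leaving out chow replicate 1, 2 or 3 gave 0. The neighbours of changed peaks were counted beside the shares over all peaks, with no test of the difference. A neighbour is the next peak on either side, where it lies within 50 kb. Each pair of changed neighbours is counted from both of its members. Pairs inside the 3 clusters above are included, so these counts are not separate evidence of clustering. Of 148 neighbours within 50 kb of the higher peaks, 6 were also higher (4.05%, against 0.683% of all peaks), and of 165 neighbours of the lower peaks 16 were also lower (9.70%, against 0.879% of all peaks). In either direction 0 neighbours changed the opposite way. Without high-fat-diet replicate 1, 120 of 1308 neighbours of higher peaks were higher (9.17%) and 30 lower (2.29%). In that fit 170 of 1302 neighbours of lower peaks were lower (13.1%) and 30 higher (2.3%). The log2 fold changes of 11130 adjacent pairs within 50 kb had a Spearman's rho of 0.19, and such pairs share the 6 libraries.

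The peak lists differed in length more than the levels did. From the pooled reads of each diet, 15355 H3K4me1 peaks were listed for chow and 8616 for the high-fat diet, with a median width of 2839 and 3634 bases and a median fold enrichment of 10.2 and 9.73, the authors' own values. These are the sites kept after filtering: the headers give 65578 sites removed for chow and 70743 for the high-fat diet. The IgG controls held 15435587 and 12751509 tags. Their part in the list lengths was not tested. Of the union peaks, 8378 came from the chow list alone, 1937 from the high-fat-diet list alone and 6519 from both. Of the 8378 peaks listed on chow alone, 11 were higher and 117 lower (1.53% changed), with a median log2 fold change of -0.04. At the 1937 peaks listed on the high-fat diet alone, 61 were higher and 5 lower (3.41%), with a median of 0.10. Without high-fat-diet replicate 1 these counts were 174 higher and 766 lower for chow alone (11.2%), and 250 and 52 for the high-fat diet alone (15.6%). Peaks listed on chow alone held 37.9%, 37.8% and 37.7% of peak counts in chow libraries and 37.3%, 36.1% and 36.6% in high-fat-diet libraries, with no overlap (exact permutation p = 0.1, the lowest possible). Most peaks present in 1 list alone therefore did not pass as different between the diets. The direction in these classes follows from how the lists were made and is a description.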

How the data were processed

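H3K4me1 was measured in 3 chow and 3 high-fat-diet libraries. The deposited table holds raw counts per union peak; per the submitters' processing notes the ChIP tools were MACS 1.4.0rc2, Bowtie 0.12.7, DESeq2 and bedtools, with build mm9 and no role stated for each. Per the file headers, each list came from the merged replicates of 1 diet, with that diet's IgG library as control. Peaks in it passed a p-value of 1e-06 and, per the deposited columns, have a false discovery rate not above 10 percent. The deposited lists also give a score (the negative log10 of the p-value, scaled by 10) and a fold enrichment, which is a ratio. The authors' deposited table of differential results gives a mean signal, log2 fold changes and p-values.

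Counts were fitted with edgeR 4.0.16 (R 4.3.3): filterByExpr by diet, which kept all peaks, TMM factors (0.991 to 1.01), and the two-sided quasi-likelihood F test with diet as the only term, with Benjamini-Hochberg adjustment over all peaks and a threshold of 0.05. "Rose" and "fell" mean past that threshold. CPM are counts per 1e+06 of the TMM-scaled total. H3K27ac was fitted in the same way. Each SE was derived from the test, as the absolute log2 fold change divided by the square root of the F statistic. Reads have no molecular identifiers. The named peaks are the 10 largest rises and falls among changed peaks that have a mean log2 CPM over the median of 5.4 and no overlap between diets, plus the 3 widest, the 3 densest and all clusters. Members and lists were chosen with earlier results of these data known. Replicate pairs of 1 diet differed by more than counting noise (chi-square per degree of freedom of 1.56 or more). Alternatives were DESeq2 1.42.0, RLE and total-count scaling, cyclic loess (limma 3.58.1), a density curve (loess, span 0.3), a mean of at least 100 counts, no filter, a replicate block, peaks in both lists, and each library left out. No annotation or sequence of build mm9 was used here, so peaks are given by position without genes or sequences, and mRNA near peaks was not analysed.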

Additional observations from a re-analysis of the deposited data

How the results depend on the processing

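The 263 changed peaks became 178 with DESeq2, 268 with RLE factors, 275 with total counts (142 higher, 133 lower), 227 with cyclic loess, 252 with a mean of at least 100 counts and 263 without a filter. The density curve gave 168 peaks (39 higher, 129 lower). Tested alone, the 6519 peaks of both lists gave 25, whereas 43 higher and 26 lower peaks of this class passed among all peaks. Leaving out 1 library gave 34 to 2036 peaks, 44 to 442 for H3K27ac and 0 to 51 clusters. For H3K27ac the libraries that moved the 215 peaks by over 1.5 times were high-fat-diet replicates 2 (442) and 3 (75) and chow replicates 1 (46), 2 (111) and 3 (44). Clusters numbered 1 with cyclic loess and 5 with the density curve. The slope difference of -0.18 ran from -0.232 to -0.128 when 1 library was left out, and became 0.00512 with the density curve, which removes it by construction. The labels do not say whether equal replicate numbers pair the libraries. Deviations from the group means had r of 0.0575, -0.144 and -0.133 between equal numbers. Between unequal numbers of the 2 diets r was -0.166 to 0.273. With 3 libraries per diet these values cannot decide whether libraries are paired. The replicate block gave 359 peaks, 258 of them among the 263, 196 for H3K27ac and 4 clusters. No listed alternative reversed a named peak that had passed. Of the 20 named peaks that had passed, 1 lost its call with DESeq2, 4 with the density curve and 11 without chow replicate 2, the most for 1 library, and 2 of the 3 in both lists lost it when those were tested alone. For peaks near 8.09 CPM, and with 3 libraries per diet, small changes may be missed, and a failed threshold does not show equal levels.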

Other observations

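With all 6 libraries, changed peaks made up 2.88% of 834 peaks on chromosome 17 (10 higher, 14 lower) and 2.27% of 1101 on chromosome 5 (4 higher, 21 lower), against 1.56% of all peaks. Without high-fat-diet replicate 1 the shares were 12.7% and 14.6%, against 12.1% of all peaks. Chromosome 6 held 15 higher and 5 lower peaks with all libraries, 67 and 46 without that replicate, and 6 and 6 with the density curve. Differences between chromosomes were not tested. On chromosome X, with 118 peaks, 0 peaks were higher and 1 was lower, while the median log2 fold change was -0.16. Its share of peak counts was 0.369%, 0.375% and 0.35% in chow replicates 1 to 3 and 0.332%, 0.319% and 0.342% in high-fat-diet replicates 1 to 3. The diets did not overlap (exact permutation p = 0.1, the lowest possible). Peaks on chromosome X had a low density, at a median of 10.8 CPM per kb. Among all peaks, the least dense bin had a positive median log2 fold change, 0.11. With the density curve the median on chromosome X was -0.24, with 0 higher and 2 lower peaks.

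The 50 peaks with most counts held 2.73%, 2.76% and 2.69% of peak counts on chow and 2.57%, 2.61% and 2.67% on the high-fat diet, again without overlap (exact permutation p = 0.1).

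At regions where H3K27ac rose (135 H3K27ac peaks), 125 H3K4me1 peaks overlapped. Their median H3K4me1 log2 fold change was 0.13, and 107 had a positive value. At the 80 regions where H3K27ac fell, 70 H3K4me1 peaks overlapped, with a median of -0.10, and 47 had a negative value. Over all H3K4me1 peaks with an H3K27ac peak, 53.1% had the same sign. That share mixes both directions and is not the share of positive H3K4me1 values. The median H3K4me1 log2 fold change was 0.08 at all peaks with H3K27ac alone and -0.02 at those with H3K4me3 as well. H3K4me1 peaks that share 1 H3K27ac peak are not separate observations.

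In the authors' deposited table, 413 H3K4me1 peaks pass an adjusted p of 0.05, with 167 higher and 246 lower. Of these, 252 changed in the same direction here and 0 in the opposite, which is 95.8% of the peaks called here and 61% of those in the authors' deposited table. The largest absolute log2 fold change is 0.63 in the authors' deposited table and 1.21 here, so the 2 scales are unlike. DESeq2 as run here gave 178 peaks. Why these values differ was not tested.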
